A study of Mus musculus with 6 samples.

Results

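Neuronal microtubule and cytoskeleton genes were examined as a set of 10, Tubb3, Mapt, Dcx, Mtap2, Mtap1b, Stmn2, Stmn3, Uchl1, Ina and Nefh, out of 18778 genes named in the deposited tables. They were found by their gene symbols, and each symbol matched 1 gene. The study compared a pair of cell states from C57BL/6 mouse cells. Neural stem cells (NSCs) derived from embryonic stem cells, at passages 25 to 30 and day 0, were grown with FGF2 and EGF. Neurons were made from the same cells, collected at day 11 and sorted for RedStar, a red fluorescent protein driven by the Tau promoter, so Mapt (the tau gene) is the gene whose promoter chose the neurons. The NSC libraries were RedStar-negative. Each state was profiled by chromatin immunoprecipitation and sequencing with 1 library for H3K4me3, 1 for H3K27me3 and 1 input, 6 samples in all. There were no replicates, so every difference below is between single libraries and has no test.

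H3K4me3 (trimethylated lysine 4 of histone H3) is found at active or poised promoters. H3K27me3 (trimethylated lysine 27) is laid down by Polycomb repressive complex 2 and marks repressed genes. Developing neurons build an axon and dendrites around bundles of microtubules. Tubulin subunits form the microtubules, microtubule-associated proteins such as tau, MAP2, MAP1B and doublecortin stabilise and organise them, stathmins promote their disassembly, and neurofilament proteins form the intermediate filaments of the axon. Beta-III tubulin, doublecortin and MAP2 are widely used as markers of neurons.

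The authors called peaks in each library against its input with SICER, and the same input served both marks of a cell type. H3K4me3 peaks held 3623654 reads in NSCs and 983266 in neurons, and H3K27me3 peaks held 3272324 and 3161819. The neuron H3K4me3 list was the shortest, with 14846 peaks against 30416 in NSCs. In 397 H3K4me3 peaks with equal bounds in both lists, the neuron library held 0.399 times the NSC reads and 0.775 times the input reads. The smallest listed peaks had 14 and 13 immunoprecipitated reads for H3K4me3, and 25 and 18 for H3K27me3. Reads outside listed peaks were not used here, so a site without a listed peak may have held signal too weak to be called.

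A gene was scored as marked when a listed peak lay within 1000 bp of its start site. For the 10 genes, H3K4me3 was present at 7 start sites in NSCs and 9 in neurons, against backgrounds of 70.4% and 61.7% of all 18778 genes. H3K27me3 was present at 7 start sites in NSCs and 3 in neurons, against 19.2% and 17.9%. None of the 7 genes with H3K4me3 in NSCs lacked it in neurons, where 13.6% of all such genes did. Of the 3 genes without H3K4me3 in NSCs, 2 (Dcx and Stmn3) had it in neurons, where 2.81% of all such genes did. Of the 7 genes with H3K27me3 in NSCs, 5 (Tubb3, Mapt, Stmn3, Uchl1 and Ina) lacked it in neurons, against 25.3% of all such genes. Mtap1b, 1 of 3 genes without H3K27me3 in NSCs, had it in neurons, against 4.40% of all such genes. By the 1 peak that the authors' gene tables pair with each gene, 6 of the 10 NSC start sites (58.5% of all genes) and 8 of the neuron ones (51.6%) had H3K4me3, whereas 4 (7.74%) and 2 (5.09%) had H3K27me3. Of these genes, 0 of 6 lost H3K4me3 (18.2%), 2 of 4 gained it (9.08%), 3 of 4 lost H3K27me3 (57.2%) and 1 of 6, Stmn2, gained it (1.92%). With listed peaks at a false discovery rate (FDR) under 1e-20 alone, neuron H3K4me3 remained at 4 of the 10 start sites, against 40.0% of all genes. Under that limit 3 of 7 (Mtap1b, Uchl1 and Nefh) lost H3K4me3, against 40.1% of all such genes, and 0 of 3 gained it, against 0.556%. Of 6 genes with H3K27me3 in NSCs under that limit, 4 lost it, against 41.0% of all such genes. With equal numbers of peaks in both lists, 5 of 7 lost H3K27me3, against 33.3%.

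**Figure D1:**
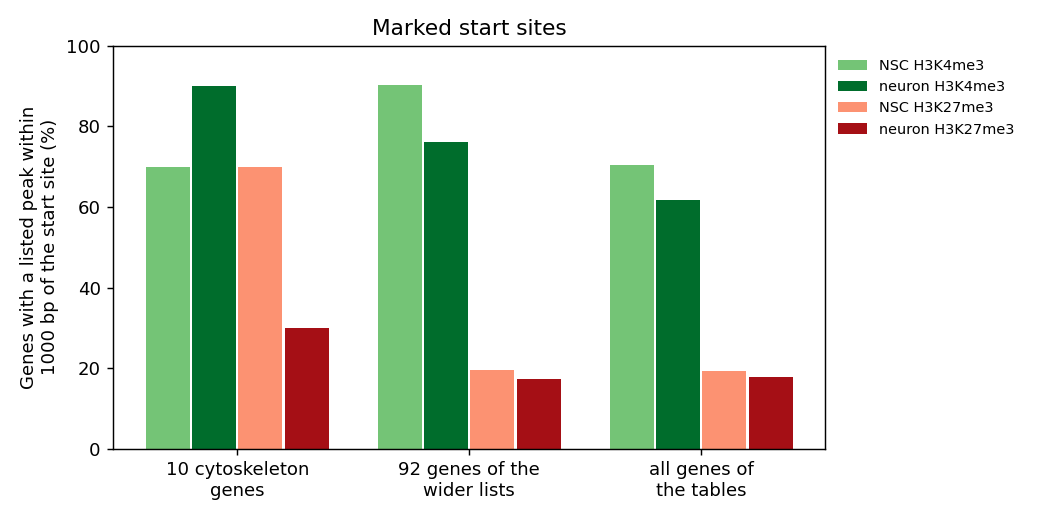
Share of start sites with a listed peak within 1000 bp (%), for the 10 cytoskeleton genes, 92 genes of wider cytoskeleton lists and all 18778 genes of the tables, 1 bar per library. In the 10 genes, the neuron H3K4me3 bar stands above the NSC bar and the neuron H3K27me3 bar below it, whereas in the wider lists and in all genes both neuron bars stand below the NSC bars.

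Promoter sequences are shown for 5 of the genes because their start sites differed in state: Tubb3 and Ina carried H3K4me3 in both cell types, Dcx and Stmn3 in neurons alone, and Mtap1b was the gene with a new H3K27me3 call. Each is the 250 bases before a start in RefSeq (build GRCm38.p6), read 5′ to 3′ on the strand of the gene, with CpG dinucleotides in capitals. The mm9 positions of the peaks were not transferred to that build. The Tubb3 sequence is chr8:123411303-123411552 on the plus strand, Ina chr19:47014431-47014680 on the plus strand, Mtap1b (Map1b in RefSeq) chr13:99516603-99516852 on the minus strand, Dcx chrX:143933220-143933469 on the minus strand and Stmn3 chr2:181314501-181314750 on the minus strand.
Tubb3: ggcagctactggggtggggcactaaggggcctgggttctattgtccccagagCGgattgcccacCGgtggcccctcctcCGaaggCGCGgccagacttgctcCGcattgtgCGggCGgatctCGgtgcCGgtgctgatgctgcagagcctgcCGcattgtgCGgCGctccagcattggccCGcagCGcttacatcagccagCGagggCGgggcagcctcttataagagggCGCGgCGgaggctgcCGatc
Ina: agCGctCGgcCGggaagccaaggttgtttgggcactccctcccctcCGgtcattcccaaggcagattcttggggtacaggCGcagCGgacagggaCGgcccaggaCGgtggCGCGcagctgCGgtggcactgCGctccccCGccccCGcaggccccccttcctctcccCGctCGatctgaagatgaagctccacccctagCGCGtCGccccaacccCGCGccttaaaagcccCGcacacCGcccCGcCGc
Mtap1b: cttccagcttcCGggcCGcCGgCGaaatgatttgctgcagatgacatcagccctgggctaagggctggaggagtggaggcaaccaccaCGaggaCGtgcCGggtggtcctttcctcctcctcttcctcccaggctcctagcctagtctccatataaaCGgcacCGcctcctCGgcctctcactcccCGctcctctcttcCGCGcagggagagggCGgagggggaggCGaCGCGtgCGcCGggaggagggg
Dcx: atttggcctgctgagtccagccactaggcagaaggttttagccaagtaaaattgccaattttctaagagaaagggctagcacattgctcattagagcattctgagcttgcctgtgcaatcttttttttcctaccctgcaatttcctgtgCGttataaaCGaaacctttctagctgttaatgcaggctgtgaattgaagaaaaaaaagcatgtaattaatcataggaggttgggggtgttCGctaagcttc
Stmn3: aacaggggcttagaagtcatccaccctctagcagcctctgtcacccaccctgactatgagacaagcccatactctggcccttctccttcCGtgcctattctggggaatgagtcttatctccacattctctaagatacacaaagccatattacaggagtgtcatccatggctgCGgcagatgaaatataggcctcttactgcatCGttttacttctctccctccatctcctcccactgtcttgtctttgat
The CpG count was 21 for Tubb3, 25 for Ina and 19 for Mtap1b, and 3 for Dcx and 3 for Stmn3. Uchl1 had 7 and Mtap2 (Map2 in RefSeq) 34. The table held a start for 7 of the 10 genes, and a second Dcx start, 95 bp away, also had 3. The 5 matched genes with H3K4me3 in NSCs thus had 7 CpGs or more, and the pair without it had the fewest. The same order was seen over all genes with 1 start in the table. H3K4me3 stood at 28.2% of 1094 NSC start sites with 0 to 4 CpGs, 72.1% of 1072 with 5 to 9, 90.9% of 3062 with 10 to 19 and 95.5% of 2772 with 20 or more.

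Few matches to 5 motifs, searched on both strands, were found in these 250 bases. The E-box CANNTG was in Mtap1b, Stmn3 and Ina and in 66.2% of all promoters, and its form CAGCTG was in Ina and in 13.0%. The TATA box TATAAA was in Dcx and Mtap1b and in 12.4% of all promoters. For RE1, the element bound by the repressor REST, the left part TTCAGCACC was in none of the 7 and in 0.301% of all promoters, and the right part GGACAGC was in Mtap2 and in 5.28%.

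Tubb3 encodes beta-III tubulin, the neuronal beta-tubulin, and lies on chromosome 8 from 125935324 to 125945915 (mm9, plus strand, ENSMUSG00000062380). In NSCs its start site lay inside both marks. The H3K4me3 peak was 1400 bp wide with 58 reads over 6 input reads, an authors' fold over input of 9.90 with an exact 95% interval from the read counts of 4.28 to 28.1. These intervals cover counting error only. The H3K27me3 domain was 5600 bp wide with 107 reads over 51, a fold of 2.93 (2.08 to 4.18). In neurons the H3K27me3 domain was not listed, and the nearest was 83525 bp away.

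The neuron H3K4me3 peak of Tubb3 was 3800 bp wide with 140 reads over 48 input reads, a fold of 2.90 (2.07 to 4.11). It ran from 524 bp before the start site to 3275 bp after it, whereas the NSC peak ended at 675 bp. Its downstream end was the same 200 bp window in which the NSC H3K27me3 domain ended. Of the start-site peaks of 11580 marked genes, 94.8% were narrower than that of Tubb3 in neurons, and in NSCs 9.88% of 13218 were. Read density was 41.4 reads per kb in NSCs and 36.8 in neurons, in libraries whose marked genes had medians of 97.3 and 42.3. In NSCs 6.47% of marked genes had a lower read density than Tubb3, and in neurons 28.3% did. Input density moved with the width, from 4.29 to 12.6 reads per kb, and 86.8% of marked genes had a lower input density in neurons. The part of that input in the wider peak was not tested.

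Mapt encodes tau, which binds and stabilises axonal microtubules, and spans 100701 bp on chromosome 11 from 104092704 to 104193404 (plus strand). Its H3K4me3 peak was 2800 bp wide in both cell types, with 278 reads over 27 in NSCs and 116 over 24 in neurons. The NSC fold was 10.5 (7.09 to 16.3) and the neuron fold 4.80 (3.07 to 7.80), in libraries whose marked genes had median folds of 9.40 and 4.64. The peak was shifted 400 bp in the direction of transcription at both ends in neurons. An NSC H3K27me3 domain of 5200 bp began 96 bp after the start site and held 145 reads over 50, and another of 3000 bp with 62 reads over 19 lay 77496 bp into the gene. Neither was listed in neurons, where the nearest H3K27me3 peak was 4305 bp before the start site, 2200 bp wide, with 39 reads over 23. The NSC H3K4me3 list also held a 1400 bp peak with 30 reads over 5 at 50696 bp into Mapt, which neurons lacked.

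**Figure D2:**
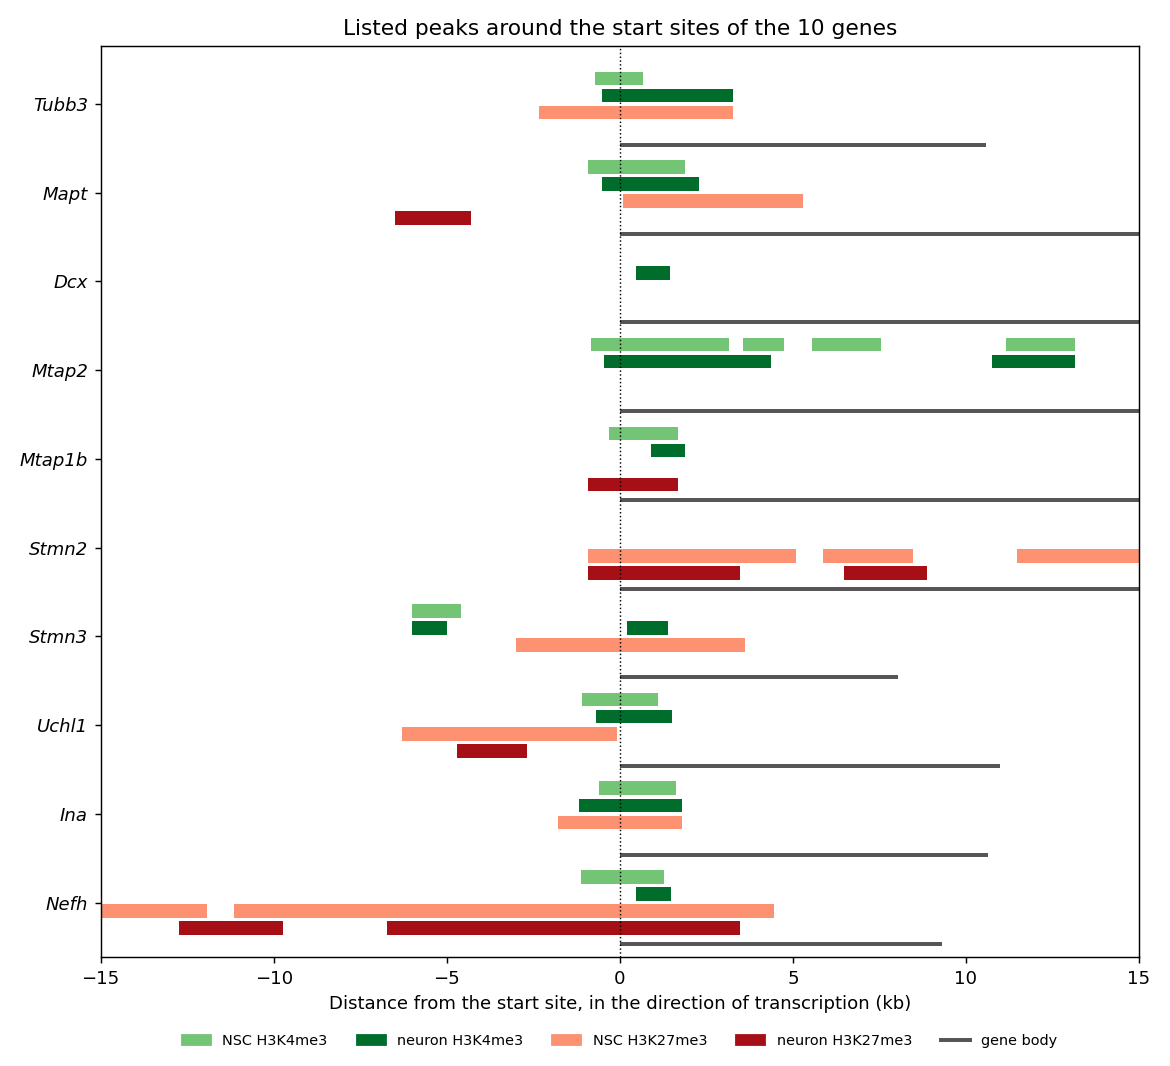
Listed peaks within 15 kb of the start sites of the 10 genes, as distance in kb in the direction of transcription (0 is the start site, grey lines are gene bodies). At Tubb3 the neuron H3K4me3 peak reaches 3.28 kb after the start site in place of the NSC H3K27me3 domain, and at Dcx, Mtap1b, Stmn3 and Nefh the neuron H3K4me3 peak within 1000 bp of the start site lies wholly after it.

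Dcx encodes doublecortin, a microtubule-binding protein of migrating neurons, and spans 77470 bp on the X chromosome from 140290385 to 140367854 (minus strand). No H3K4me3 peak was listed on it or within 15 kb in NSCs. In neurons a 1000 bp peak began 455 bp after the start site, with 33 reads over 5 and a fold of 6.56 (2.54 to 21.5). Only 9.56% of neuron start-site peaks were narrower, and 5.61% had a lower input density than its 5.0 reads per kb. The start site had no H3K27me3 in either cell type, but the far part of the gene did in NSCs: 5 domains from 3200 to 10600 bp wide, the first of them 30455 bp from the start site. Together they held 557 reads over 142 input reads and covered 41.6% of the gene. Their folds ran from 4.35 to 10.2, and 10.2 was the highest among H3K27me3 peaks on any of the 10 genes. Input density beneath them was 2.81 to 5.0 reads per kb, against a median of 8.70 at marked NSC start sites. Their immunoprecipitated density was 14.3 to 20.6 reads per kb, against a median of 20.4. The part of the low input in these folds was not tested. In neurons none of the 5 domains was listed, and the nearest H3K27me3 peak was 3261255 bp away.

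The X chromosome as a whole held little H3K27me3, 0.718 Mb in NSCs and 0.283 Mb in neurons, of 173.2 and 146.4 Mb genome-wide. Of 33 X-linked genes with H3K27me3 on the gene body in either cell type, 63.6% had less of it in neurons, against 54.3% of 5283 such genes genome-wide.

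Mtap2 encodes MAP2, a microtubule-associated protein of dendrites, and is the longest of the 10 genes at 267316 bp, on chromosome 1 from 66221842 to 66489157 (plus strand). It was the gene with H3K4me3 alone in both cell types, a state it shared with 54.9% of all genes. The start-site peak was 4000 bp wide with 347 reads over 57 in NSCs, and 4800 bp wide with 247 reads over 66 in neurons, the most H3K4me3 reads of any of the 10 genes in either library. The folds were 6.23 (4.70 to 8.40) and 3.72 (2.82 to 4.96). Farther into the gene were 19 more NSC peaks and 4 more neuron peaks. The strongest lay 145758 bp from the start site in NSCs, 4800 bp wide with 410 reads over 60. In neurons that peak was 6800 bp wide with 328 reads over 116, and the authors' neuron table paired Mtap2 with another peak, of 46 reads over 16, 211358 bp into the gene. The nearest H3K27me3 peaks were 74243 bp from the start site in NSCs and 71643 bp in neurons. Input reads in listed H3K4me3 peaks were denser on chromosome 1 than elsewhere. They stood at 14.5 per kb there and 10.4 in the median autosome in NSCs, and at 13.1 and 9.38 in neurons, and the Mtap2 start-site peak had 14.2 and 13.8. The part of this in the many peaks along Mtap2 was not tested.

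Mtap1b encodes MAP1B, a microtubule-associated protein of growing axons, on chromosome 13 from 100194396 to 100286495 (minus strand). It was the 1 gene of the 10 with H3K27me3 at the start site in neurons alone. The nearest NSC peak was 368905 bp away. In neurons a 2600 bp peak lay across the start site, from 904 bp before to 1695 bp after it, with 54 reads over 18 and a fold of 3.15 (1.82 to 5.71). Along the gene body neurons had 5 more H3K27me3 peaks of 2400 to 4200 bp, with 335 reads over 145 in all and folds from 1.93 to 3.15. The start-site peak had an FDR of 8.46e-13 and was not called at FDR under 1e-20. H3K4me3 went from 2000 bp with 120 reads over 18 in NSCs to 1000 bp with 34 over 9 in neurons. The neuron H3K4me3 peak began 896 bp after the start site, the farthest of the marked start sites, so at a limit of 500 bp Mtap1b counted as having no H3K4me3 in neurons.

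Stmn2 and Stmn3 encode neuronal stathmins, tubulin-binding proteins that destabilise microtubules, and their start sites differed from each other. Stmn2, on chromosome 3 from 8509521 to 8561604 (plus strand), had no H3K4me3 in either cell type, with the nearest listed peaks 154879 bp away in NSCs and 155879 bp in neurons. It was the member with H3K27me3 alone in both, a state of 7.65% of all genes. The start-site H3K27me3 domain was 6000 bp wide with 135 reads over 55 in NSCs, a fold of 3.43 (2.49 to 4.78), and 4400 bp wide with 110 reads over 18 in neurons, a fold of 6.42 (3.88 to 11.2). The upstream end was the same in both, 921 bp before the start site. The neuron fold was above that of 97.8% of marked genes, and the input density beneath it, 4.09 reads per kb, was below that of all but 2.98%. Over the gene body of Stmn2, the NSC domains beyond the start site numbered 5 with 374 reads over 195, and the neuron ones 3 with 140 over 58.

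Stmn3, on chromosome 2 from 181041164 to 181049205 (minus strand), lost H3K27me3 and gained H3K4me3. The NSC H3K27me3 domain was 6600 bp wide, from 2994 bp before to 3605 bp after the start site, with 140 reads over 68 and a fold of 2.88 (2.14 to 3.90). The nearest one in neurons was 162606 bp away. The neuron H3K4me3 peak was 1200 bp wide and began 206 bp after the start site, inside the former domain, with 37 reads over 9 and a fold of 4.08 (1.94 to 9.62). In NSCs the nearest H3K4me3 peak was 4595 bp before the start site and covered the start site of Rtel1, a helicase gene on the other strand. Neurons had that peak too, with 43 reads over 10 against 152 over 19 in NSCs. Only 11 of 18778 genes, 0.0586%, had the same 4-way state as Stmn3.

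Ina and Nefh encode neurofilament proteins, alpha-internexin and the heavy chain, and Uchl1 a ubiquitin hydrolase abundant in neurons. Ina, on chromosome 19 from 47089188 to 47099817 (plus strand), had an NSC H3K4me3 peak of 2200 bp with 175 reads over 19. In neurons it measured 3000 bp and held 109 reads over 22. Its NSC H3K27me3 domain, 3600 bp with 86 reads over 43 and a fold of 2.80 (1.92 to 4.13), was the narrowest of the 7, and in neurons the nearest was 282612 bp away. The neuron H3K4me3 peak of Ina ended in the same window as that domain, 1811 bp after the start site.

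Uchl1, on chromosome 5 from 67067489 to 67078468 (plus strand), had 206 H3K4me3 reads over 20 in NSCs and 62 over 16 in neurons, in peaks of 2200 bp each. Its NSC H3K27me3 lay wholly before the gene, from positions -6289 to -90 relative to the start site, with 137 reads over 56. In neurons a peak of 2000 bp with 37 reads over 20 lay inside the same stretch, 2690 bp from the start site. An unnamed gene, ENSMUSG00000087601, starts 247 bp away on the other strand, within the same H3K4me3 peaks, so those reads cannot be assigned to either gene. Its start site also counted as marked with H3K27me3 in NSCs and not in neurons, so that change cannot be assigned to either gene.

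Nefh, on chromosome 11 from 4838757 to 4848067 (minus strand), carried both marks in both cell types. Its H3K27me3 domain was the widest of the 10 genes, 15600 bp with 482 reads over 137 in NSCs, a fold of 4.92 (4.06 to 5.99), and 10200 bp with 284 over 78 in neurons, a fold of 3.82 (2.97 to 4.98). The fold was above that of 84.9% of marked genes in the NSC list and 73.6% in the neuron list. H3K4me3 was 2400 bp wide with 100 reads over 20 in NSCs and 1000 bp with 28 over 7 in neurons, where the peak began 468 bp after the start site.

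**Figure D3:**
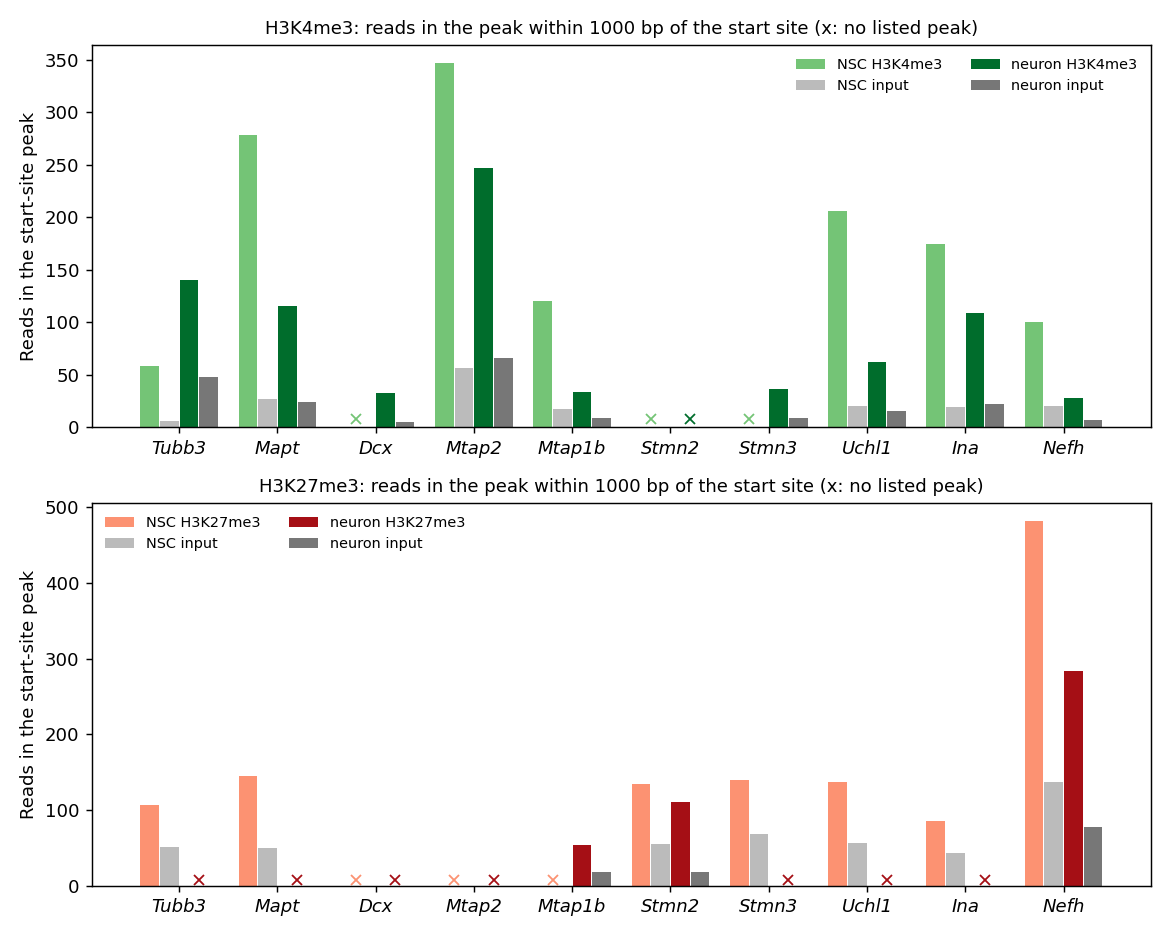
Reads of the immunoprecipitated library (colour) and of the input (grey) in the peak within 1000 bp of each start site, for H3K4me3 (top) and H3K27me3 (bottom), 1 library per bar and a cross where no peak was listed. Among genes with an H3K4me3 peak in both cell types, Tubb3 is the one with more reads in neurons (140) than in NSCs (58). For H3K27me3, 5 genes have an NSC bar with a neuron cross.

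The next comparison set the size of the H3K4me3 peaks in neurons against NSCs, for genes marked in both. Over all 11424 such genes the median ratio of reads was 0.306, of input reads 0.611 and of widths 0.733, in peaks called separately in each library. The 7 cytoskeleton genes had a median read ratio of 0.417 and a median width ratio of 1. The read ratio of Tubb3 was 2.41, above that of 99.9% of the genes, over a region that also differed in width and had an input ratio of 8.0. Its fold over input ranked the other way, above 56.0% of marked genes in NSCs and 8.36% in neurons. Mtap2 had a read ratio of 0.712 (98.4% of genes lower), Ina 0.623 (97.7%) and Mapt 0.417 (87.9%). Uchl1, with 0.301, Mtap1b, with 0.283, and Nefh, with 0.280, lay near the median of all genes. In width, 11.1% of all genes had a wider peak in neurons, and 3 of the 7 did: Tubb3 by a ratio of 2.71, Ina by 1.36 and Mtap2 by 1.20. Nefh and Mtap1b had the narrowest, with width ratios of 0.417 and 0.500, and are also those of the 7 that had H3K27me3 in neurons.

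The bounds of the H3K4me3 peaks were compared next. Among genes marked in both, the upstream edge of the peak was shifted by a median of 200 bp in the direction of transcription in neurons, and the downstream edge by a median of -200 bp, so the typical peak shrank from both sides. The downstream edge was shifted into the gene by 2600 bp in Tubb3, 1200 bp in Mtap2 and 400 bp in Mapt and Uchl1. In Nefh, Ina and Mtap1b that shift was 200 bp, the step of the peak bounds. The share of all genes with such shifts was not counted, so they are not read as particular to the 7 cytoskeleton genes. Among these 7 the upstream edge was shifted by -600 bp in Ina and by 200 to 1600 bp in the others. The whole neuron peak lay after the start site in Nefh and Mtap1b, against 12.3% of all genes in neurons and 1.91% in NSCs, and the same held for the new peaks of Dcx and Stmn3.

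**Figure D4:**
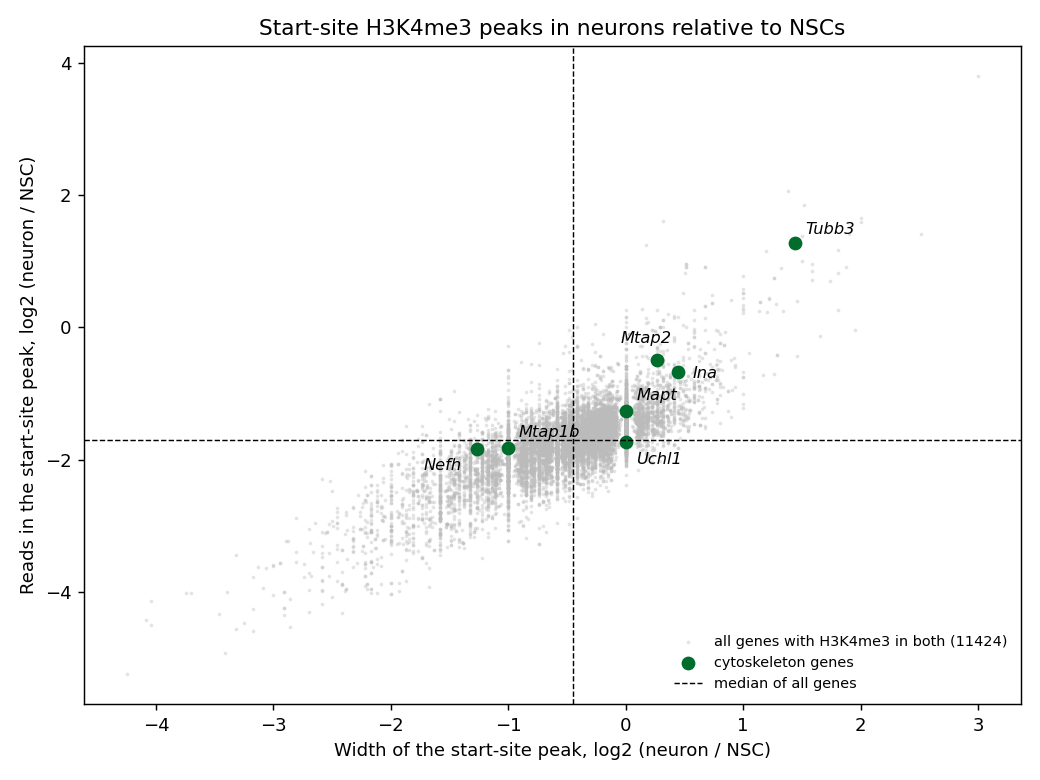
Each point is a gene with an H3K4me3 peak at the start site in both cell types: log2 ratio (neuron over NSC) of the peak's width on the x axis and of its reads on the y axis. Dashed lines are the medians of all 11424 genes. Tubb3, Ina, Mtap2 and Mapt (green) lie above both medians, and Mtap1b and Nefh lie to the left of the median width.

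The NSC H3K27me3 domain at the start site was then scored for H3K4me3 in each cell type. Of 3598 genes with such a domain, 9.06% had more of it covered by H3K4me3 in neurons than in NSCs and 42.1% had less. Of the 7 cytoskeleton genes 4 had more and 2 had less. H3K4me3 covered 25.0% of the Tubb3 domain in NSCs and 67.9% in neurons, 61.1% and 83.3% of the Ina domain, 34.6% and 42.3% of the Mapt domain, and 0 and 18.2% of the Stmn3 domain. These 4 domains held no neuron H3K27me3. In Uchl1 the H3K4me3 share was 16.1% in NSCs and 9.68% in neurons, and in Nefh 15.4% and 6.41%. Neuron H3K27me3 still covered 32.3% of the Uchl1 domain, 74.4% of the Nefh domain and 73.3% of the Stmn2 domain, which had no H3K4me3 in either cell type, as 46.2% of all such domains had none.

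Both marks stood at 5 of the 10 start sites in NSCs (Tubb3, Mapt, Uchl1, Ina and Nefh), against 8.53% of all genes, and at 2 in neurons (Mtap1b and Nefh), against 4.59%. H3K27me3 alone stood at 2 start sites in NSCs (Stmn2 and Stmn3; 10.6% of all genes) and 1 in neurons (Stmn2; 13.3%). A mixed population can give both marks without any cell carrying both. Of the 5, 4 had H3K4me3 alone in neurons and Nefh kept both. Of all 1601 genes with both marks in NSCs, 20.9% had H3K4me3 alone in neurons, 36.9% kept both, 37.3% had H3K27me3 alone and 4.93% had neither. By the peaks that the authors' gene tables name, 3 of the 10 genes carried both marks in NSCs (2.32% of all genes) and 1 in neurons (0.831%), with H3K27me3 alone at 1 in NSCs (Stmn3; 5.42%) and 1 in neurons (Stmn2; 4.25%), and 2 of the 3 had H3K4me3 alone in neurons, against 33.9% of all such genes.

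Over the gene bodies, H3K27me3 was present on 7 of the 10 genes in NSCs and 3 in neurons, against 23.5% and 24.1% of all genes. Of 8 genes with any, 7 had a smaller covered share in neurons, against 54.3% of 5283 such genes, and Mtap1b had a larger one, against 32.5%. The share was 53.9% in NSCs and 21.3% in neurons for Stmn2, 44.8% and 0 for Stmn3, 41.6% and 0 for Dcx, and 30.9% and 0 for Tubb3. It was 48.0% and 37.2% for Nefh, 17.0% and 0 for Ina, 8.14% and 0 for Mapt, and 0 and 19.4% for Mtap1b. H3K4me3 peaks overlapped the bodies of 7 genes in NSCs (75.7% of all genes) and 9 in neurons (65.7%). H3K4me3 covered 30.9% of the Tubb3 body in neurons and 6.38% in NSCs. In the 15 kb before and after the genes, H3K27me3 was listed at 6 of the 10 in NSCs and 5 in neurons, against 36.0% and 35.3% of all genes. H3K4me3 was listed there at 8 (80.0%) and 6 (68.0%). All of the H3K27me3 lay on the side before the start site, none on the side after the gene. At all 6 genes in NSCs it included the part of the start-site domain that lay before the gene. The share of all genes with H3K27me3 on that side alone was not counted, so the side is not read as particular to these genes. H3K27me3 covered 94.7% of the 15 kb before Nefh in NSCs and 64.9% in neurons.

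**Figure D5:**
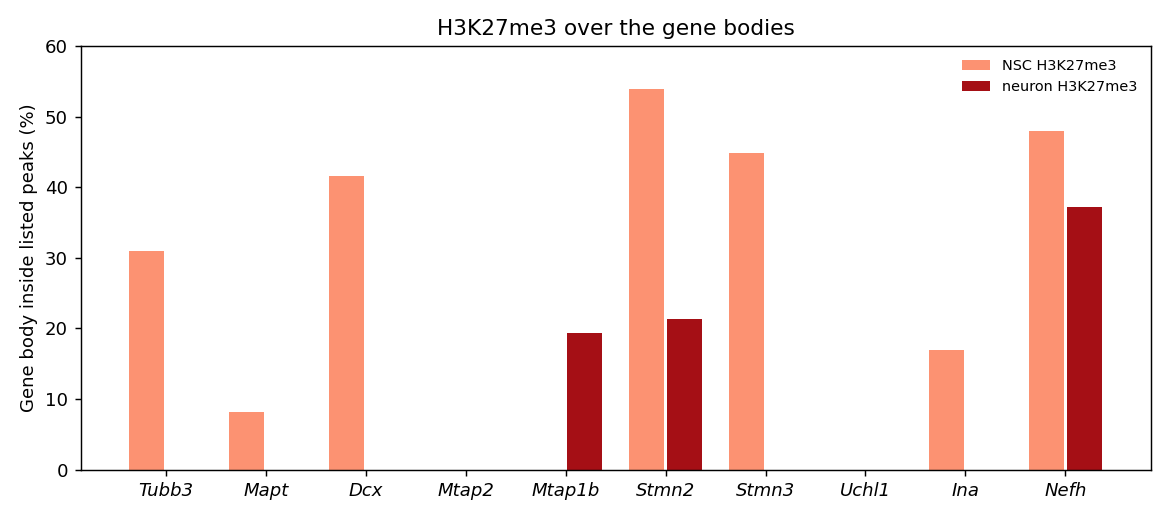
Share of each gene body inside listed H3K27me3 peaks (%), in NSCs and neurons, 1 library per bar. Stmn2 has the highest NSC bar (53.9%), 5 genes have an NSC bar and none in neurons, and Mtap1b has a neuron bar alone (19.4%).

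Other cytoskeleton genes were scored for comparison, in 6 lists with 92 scored genes: tubulins, microtubule-associated and plus-tip proteins, stathmins and collapsin response mediators, intermediate filaments, motors, and growth cone and actin genes. H3K4me3 was more frequent on them than on all genes. It was at 83 of 92 in NSCs (90.2%, against 70.4% of all genes) and 70 in neurons (76.1%, against 61.7%). H3K27me3 was at 18 (19.6%, against 19.2%) and 16 (17.4%, against 17.9%). Of the 83, 13 lacked H3K4me3 in neurons, and none of the other 9 had it in neurons, against 2.81% of all such genes. Of the 18, 3 lacked H3K27me3 in neurons, and 1 of the other 74 had it there, against 4.40%. In share, 15.7% of the marked genes lost H3K4me3 and 16.7% H3K27me3, near the 13.6% and below the 25.3% of all genes.

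By list, the 11 scored tubulin genes were marked with H3K4me3 at all 11 start sites in NSCs and 10 in neurons, and 1 and 2 carried H3K27me3. The shares of all genes given above are the background for each list. Of the 7 stathmin and collapsin response mediator genes, 4 and 3 carried H3K4me3, and 4 carried H3K27me3 in each cell type. Stmn4, Dpysl4 and Crmp1, which encode a stathmin and mediators of semaphorin signalling in axons, had H3K27me3 alone in both cell types, as Stmn2 did. Of the 11 intermediate filament genes, 10 and 7 carried H3K4me3 and 4 in each cell type carried H3K27me3. The neurofilament light chain gene Nefl had both marks in both cell types, as Nefh did, with an NSC H3K27me3 domain of 34800 bp and a neuron domain of 15400 bp. The numbers with H3K4me3 were 25 and 20 of 27 microtubule-associated and plus-tip genes, 16 and 15 of 17 motor genes, and 17 and 15 of 19 growth cone and actin genes. H3K27me3 stood at 5 and 3, 3 and 2, and 1 and 1 of these.

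The state of Tubb3, Mapt, Uchl1 and Ina (both marks in NSCs and H3K4me3 alone in neurons) was found in 334 genes, 1.78% of all, and in 3 of the 92. These were Mtap6, of a protein that stabilises microtubules, the plus-tip gene Clip1 and Kif1a, of a kinesin that carries synaptic vesicle precursors. The distance from the start site to the nearest neuron H3K27me3 peak was 1758 bp for Mtap6, 1373 bp for Clip1 and 11570 bp for Kif1a. The state of Mtap1b (H3K4me3 in both, H3K27me3 in neurons alone) was found in 198 genes, 1.05% of all, and in 1 of the 92, the tubulin gene Tubb6. Tubb6 had 247 H3K4me3 reads over 22 in NSCs and 30 over 7 in neurons, and a neuron H3K27me3 peak of 5400 bp with 101 reads over 35. The state of Dcx was found in 73 genes, 0.389%, and in none of the 92.

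H3K4me3 was lost by both the peak lists and the authors' gene tables at 5 of the 92: Tuba4a, of an alpha-tubulin, Sync, of syncoilin, Kif5a, of a neuronal kinesin, Spnb3, of a spectrin, and Coro1a, of an actin-binding coronin. The share of all genes that lost it by both was not counted. Tuba4a and Spnb3 kept H3K27me3. The NSC domain of Tuba4a measured 22200 bp and the neuron domain 20200 bp, on chromosome 1, where input in listed H3K27me3 peaks stood at 12.9 and 11.6 reads per kb against 8.87 and 7.84 in the median autosome. Those of Spnb3 measured 8400 and 6200 bp. Among the broadest H3K4me3 peaks in neurons were those of Marcks and Basp1, of growth cone proteins, 7400 and 5000 bp wide, and of Nes, 4800 bp. In NSCs the broadest were those of Kif3c, 8800 bp, Marcks, 8000 bp, and Vim, 5800 bp. The kinesin gene Kif26b, also on chromosome 1, had H3K27me3 over 19400 bp in the NSC list and 22200 bp in the neuron list.

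Start sites of cell type marker genes were scored as a check of the labels. Of all genes, 70.4% carried H3K4me3 in NSCs and 61.7% in neurons, and 19.2% and 17.9% carried H3K27me3. Of 7 scored neuron genes, 4 carried H3K4me3 in NSCs and 3 in neurons, and Elavl3, Snap25 and Gap43 had it in neither. H3K27me3 was at 3 of them (Elavl4, Syt1 and Nefl) in both cell types, and none lost it. All 7 neural stem cell genes carried H3K4me3 in both cell types. Their peaks held fewer reads in neurons, as peaks of most genes did. Reads went from 378 to 28 at Hes5, 624 to 118 at Fabp7, 460 to 130 at Sox9 and 677 to 207 at Nes. They went from 670 to 216 at Vim, 1619 to 675 at Olig2 and 808 to 380 at Sox2. Over all genes marked in both, the median ratio of reads was 0.306 and the 95th percentile 0.508. Fewer reads in neurons was thus not particular to these 7 genes. Of 5 astrocyte genes, 3 and 2 carried it, and 2, Gja1 and Aldh1l1, had H3K27me3 in neurons and not in NSCs. Of the 2 oligodendrocyte genes scored, Cnp carried H3K4me3 in both cell types and Mbp H3K27me3 in NSCs, and the 1 embryonic stem cell gene scored, Esrrb, carried neither mark. The presence of H3K4me3 at stem cell genes in the sorted neurons is given as measured, and its part in the results above was not tested.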

How the data were processed

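Peak lists and gene tables came from 4 immunoprecipitated libraries of 6 samples. Per the submitters' processing notes, FastQC, Bowtie, SAMtools and SICER were used with build mm9. Not given in the sources used here: versions, settings and duplicate handling. The deposited lists give read counts of the immunoprecipitated and input library per peak, a p-value and FDR, and a fold, which is the ratio of the counts times a constant of each library (1.024, 1.398, 0.9935 and 1.05 for NSC H3K4me3, NSC H3K27me3, neuron H3K4me3 and neuron H3K27me3). Folds are the authors' own. Other deposited columns are positions, printed as the authors' files give them.

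Start sites were taken from the gene bounds in the deposited tables, by strand. Lost and gained describe calls present in one cell type and absent from the other, not tests. Exact (Clopper-Pearson) 95% intervals of the fold came from the share of immunoprecipitated reads. The wider lists hold 104 symbols, of which 86 matched directly, 7 through a RefSeq synonym and 11 not at all, and a pair of symbols named the same gene, which leaves 92 genes. All 10 genes are named, and of the wider lists those that changed by both the peak lists and the gene tables, the 3 widest peaks per library and up to 6 genes in the same state as a member that changed. Stmn4, Dpysl4 and Crmp1 are named outside this rule, for the state they shared with Stmn2. Sox10 and others without a table row were not analysed here. The distance and coverage steps were tested on simulated data and by brute force. The members and lists were chosen with earlier results of these data known. Intervals used scipy 1.17.1, tables pandas 2.3.3 with numpy 2.4.6, and plots matplotlib 3.10.9, under Python 3.11.15. Alternatives were other distances, stricter peaks, equal numbers of peaks, other flanks and the gene tables' own peaks.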

Additional observations from a re-analysis of the deposited data

How the results depend on the processing

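No paired analysis was possible because each antibody had a single library in each cell state and the labels carry no replicate numbers, so no replicate could be left out either. Of 88 recomputed summaries of the 10 genes and the wider lists, 69 stayed within 1.5 times the reported value, as did 263 of 280 single start-site states, which were unchanged. At a limit of 500 bp, 1 gene (Mtap1b) lost H3K4me3 (13.9% of all such genes) and 1 carried both marks in neurons (3.59%). At 5000 bp, 5 carried H3K27me3 in neurons (24.6% of all genes), 4 carried both marks there (8.44%), 3 of 7 lost H3K27me3 (19.6%) and 1 of 2 gained H3K4me3 (5.76%). With FDR under 1e-20, 4 carried H3K4me3 in neurons, 3 lost it, 0 gained it, 0 gained H3K27me3 (2.22% of all such genes) and 0 carried both marks in neurons (0.559%). Under that limit 2 had neuron H3K27me3 in the flanks, and the share of all genes that did was not counted. By the gene tables' own peaks, 4 carried H3K27me3 in NSCs, 3 lost it, 3 carried both marks in NSCs and 1 in neurons. By the same peaks 7 genes of the wider lists gained H3K4me3, as did 9.08% of all genes not marked in NSCs. Where absence needed no peak within 10 kb, an alternative chosen after seeing the data, 3 of 7 lost H3K27me3 (Tubb3, Stmn3 and Ina; 8.95% of all such genes) and 1 of 2 gained H3K4me3 (Dcx; 2.79%). The cause was not tested. Limits of 2500 bp, a fold of at least 2 and equal numbers of peaks left the counts of the 10 genes' marked start sites, losses, gains and both marks within 1.5 times. Those settings were not run for the wider lists, gene bodies or flanks. Peaks with few reads, such as those of Dcx, Stmn3, Mtap1b and Nefh in neuron H3K4me3, limit what this depth can show.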
